A study of Trametes cinnabarina with 17 samples.

Results

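Transcription in the white-rot fungus *Pycnoporus cinnabarinus* CIRM-BRFM 137 (Pycci 137) was compared between 3 cultures grown on a mixture of xylans and galactomannans (xylan-galactomannan replicates 1, 2 and 3) and 3 cultures grown on maltose (maltose replicates 1, 2 and 3). These 6 libraries were chosen by the labels of the cultures, from 17 libraries in all. According to the labels, the xylan-galactomannan medium held 15 g/l of the mixture with 2.5 g/l maltose, and the maltose medium held 20 g/l maltose. All cultures were of the same strain, were shaken in flasks at 30 °C in a mineral medium with yeast extract, and were sampled as mycelium with any remaining substrate on day 3. The hemicellulose mixture and the maltose concentration therefore differed together, and their parts in a difference from maltose cannot be told apart. The study's text instead treats a substrate as the sole carbon in its medium, a discrepancy with the labels that stayed unsettled here. The 2 Avicel libraries (replicates 1 and 3) came from medium with 15 g/l of this crystalline cellulose and 2.5 g/l maltose, and were used as a second reference at the lower maltose concentration. The study's text describes independent cultures for its other substrates but not this mixture, so for xylan-galactomannan the p-values measure the spread between samples that the labels number separately.

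Xylans are chains of xylose, and galactomannans are chains of mannose that carry galactose side groups. Fungi cut such polymers outside the cell with glycoside hydrolases (GH families), take up the released sugars through membrane transporters, and in the common fungal pathway turn xylose into xylitol by an aldo/keto reductase and later phosphorylate xylulose by xylulokinase. Maltose, a glucose dimer, needs only an alpha-glucosidase, and glucose represses many genes for plant cell wall degradation in filamentous fungi.

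Library totals were 14110465 to 16176027 counts on xylan-galactomannan and 13817859 to 14848831 counts on maltose. The files pair no gene model with a name, so genes are given by protein ID, with functions as predicted in the study's annotation. Normalized read counts (counts divided by the authors' size factors) are not divided by gene length, so levels are compared between media within a gene. The xylan-galactomannan replicates were further apart than the maltose ones: across genes, the log2 differences within a pair of replicates had a standard deviation (SD) of 0.345 to 0.511 on xylan-galactomannan and 0.228 to 0.29 on maltose. Replicates 1 and 2 were the pair farthest apart. Since every pair differed by more than counting noise, no library was treated as a repeat deposit of another, which says nothing of the quality of the replicates.

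The first question was how many genes differed between the media and by how much. Transcription was higher on xylan-galactomannan for 639 genes and lower for 293 genes, of 9162 tested. A gene was called at a Benjamini-Hochberg adjusted p under 0.05 in the quasi-likelihood test of edgeR (referred to as the adjusted p from here on) and a log2 fold change past 1 in either direction. The calls made up 10.2% of the tested genes, with 6.97% higher and 3.2% lower. The median log2 fold change of all tested genes was -0.0046, and the middle 50% of them lay between -0.33 and 0.37. Without xylan-galactomannan replicate 1 the counts were 728 higher and 413 lower.

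The higher genes also changed more. Their median log2 fold change was 1.38, with 154 of 639 genes above 2, 58 above 3 and 17 above 4. The median of the lower genes was -1.26, with 21 of 293 genes below -2 and 2 below -3. Most calls were therefore of modest size, since 75.9% of the higher genes and 92.8% of the lower genes changed by no more than 2 on the log2 scale. Many genes sat close to the fold threshold: 111 genes past the adjusted p had a log2 fold change between 1 and 1.1, and 129 between 0.9 and 1. On the negative side 68 genes lay between -1.1 and -1, and 110 between -1 and -0.9.

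**Figure D1:**
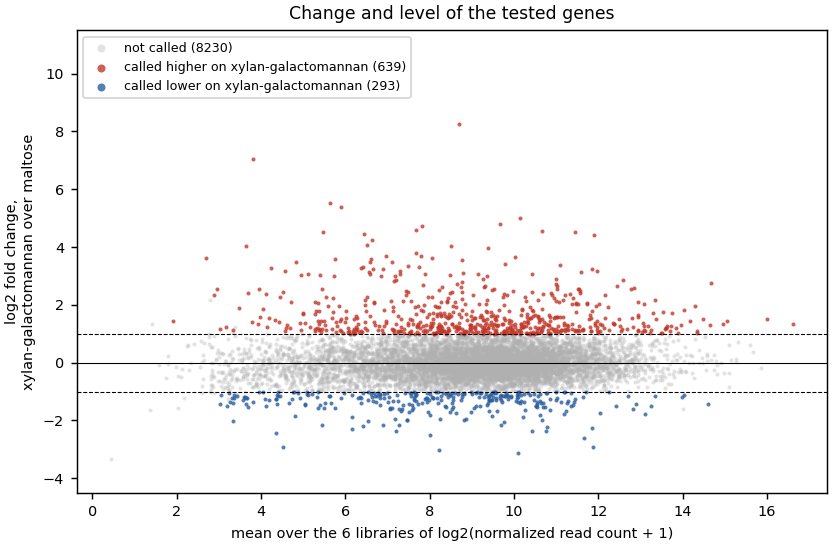
Log2 fold change of xylan-galactomannan over maltose (vertical axis) against the mean over the 6 libraries of log2(normalized read count + 1) (horizontal axis), with 1 point per tested gene. Red points are the 639 genes called higher, blue points the 293 called lower and grey points the genes not called. Dashed lines mark log2 fold changes of 1 and -1. Red points reach 8.27, while blue points end at -3.13.

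Normalized read counts of the 3 xylan-galactomannan libraries did not overlap with those of the 3 maltose libraries for 635 of the 639 higher genes and 292 of the 293 lower genes. Among all tested genes 49.8% did not overlap. Spread between replicates was nevertheless uneven. In 157 of the 932 called genes (16.8%) the xylan-galactomannan replicates spanned more than 1 on the log2 scale, against 40 (4.29%) for the maltose replicates. Over all tested genes the shares were 6.81% on xylan-galactomannan and 1.55% on maltose. Replicate 1 was the library farthest from the median of the 3 in 90 of these 157 genes, replicate 2 in 54 and replicate 3 in 13. Each xylan-galactomannan library set alone against the maltose mean gave a median log2 difference of 1.37, 1.51 and 1.48 (replicates 1, 2 and 3) over the higher genes, and of -1.09, -1.43 and -1.32 over the lower genes. Replicate 1 was thus the library closest to maltose in both directions.

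The higher genes had a median normalized read count of 970.7 on xylan-galactomannan and 316.4 on maltose. The lower genes had a median of 211.6 on xylan-galactomannan and 527.4 on maltose. No gene had 0 counts in every maltose library together with 10 or more counts over the 3 xylan-galactomannan libraries. The reverse case was 1 gene, with 22 counts over the maltose libraries, which the filter on low counts left untested. Some called genes were nevertheless near 0 in 1 medium. A mean normalized read count under 10 was found on maltose for 23 higher genes, and on xylan-galactomannan for 21 lower genes. By level, the share of genes called higher was 8.69% of the 909 genes with a mean log2(normalized read count + 1) under 6, 5.71% of the 3663 genes between 8 and 10, and 12.6% of the 524 genes at 12 and over. The share called lower was 6.49%, 2.46% and 2.29% in the same classes. The highest class thus had the largest share of higher genes, while its share of lower genes was close to that of the class between 8 and 10. The median standard error (SE) of the log2 fold change was 0.285 in the lowest class and 0.138 to 0.183 in the others, so the shares in the lowest class rest on less precise values.

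**Figure D2:**
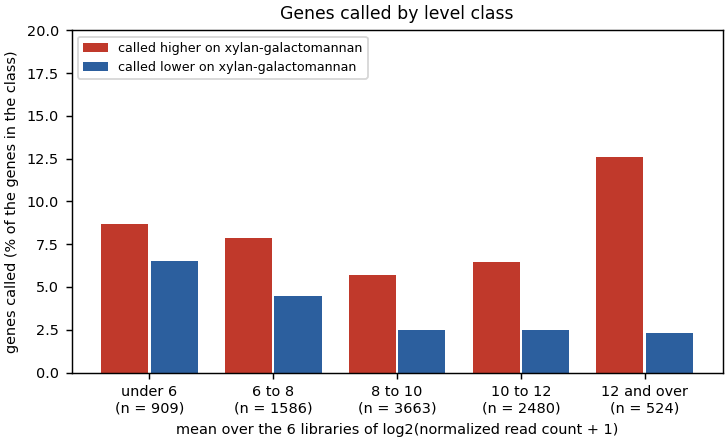
Percentage of tested genes called higher (red) or lower (blue) on xylan-galactomannan against maltose in 5 classes of the mean over the 6 libraries of log2(normalized read count + 1), with the number of tested genes under each class. Red bars run from 5.71% (8 to 10) to 12.6% (12 and over), and blue bars from 6.49% (under 6) down to 2.29% (12 and over).

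Genes with a mean above 12 log2 are called highly transcribed here. There were 598 of these on xylan-galactomannan and 527 on maltose, and 430 were highly transcribed on both. Of the 598 genes 122 (20.4%) were called higher and 9 lower on xylan-galactomannan, and of the 527 genes 44 (8.35%) were called higher and 23 lower. The first set was chosen on xylan-galactomannan and the second on maltose, which moves their shares in opposite directions. Genes that were called higher and were highly transcribed on xylan-galactomannan but not on maltose numbered 78, and 14 genes that were called lower were highly transcribed on maltose only. A level of 11 gave 126 genes in place of 78, and a level of 13 gave 44. Of 85 genes taken from the study's annotation for the lists below, 10 were among the 78: protein IDs 3335, 8001, 8551, 8051, 10401, 5902, 6423, 8078, 3400 and 5280.

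The share of all counts held by the 639 higher genes was 17.9 ± 1.06% on xylan-galactomannan and 6.82 ± 0.568% on maltose (SD, n = 3 each). That of the 293 lower genes was 1.42 ± 0.092% on xylan-galactomannan and 4.17 ± 0.17% on maltose. These differences follow from how the genes were chosen and are given as a description. Gains were spread over many genes, since the 10 genes that gained most accounted for 27.3% of the gain of 11.04 percentage points, and none of these 10 was in the annotated lists. In the groups not used to choose them, the 639 genes held 21.1 ± 2.48% of counts on Avicel (SD, n = 2), and means of 16.18% on pine, 18.4% on wheat straw and 19.1% on aspen (n = 3 each). Such shares weigh abundant genes most. The median log2(normalized read count + 1) of the 639 genes was 9.253 and 9.026 in the Avicel libraries. It was 9.813, 9.965 and 10.01 in the xylan-galactomannan libraries, and ran from 8.28 to 8.31 in the maltose libraries. On aspen it ran from 9.978 to 10.03, on pine from 9.884 to 9.942 and on wheat straw from 9.709 to 9.978.

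The second question was which predicted functions changed. The 85 annotated genes, all but 6394 with a predicted function, were sorted into 8 lists. These lists do not hold every gene that the study annotates. The study selected these genes on plant substrates, in gene groups highly transcribed there but not on maltose or Avicel, or from gene groups rich in secreted proteins. Those on plant substrates were also set against the same maltose libraries. All the gene groups were formed by transcription over media that included Avicel. The direction of these genes against maltose or Avicel is therefore not independent evidence. On xylan-galactomannan 30 of the 85 genes were called higher, 55 were not called and 0 were called lower by edgeR, and DESeq2 also called 30 higher and 0 lower. Among all tested genes 6.97% were called higher and 3.2% lower, and the counts of each list stand beside these shares. The median log2 fold change of the 85 genes was 0.64. At an unadjusted p under 0.05, with no fold threshold, 1 of the 6 genes below 0 was lower, the oligopeptide transporter 4044. No gene predicted as an endo-xylanase or endo-mannanase was in the lists, so the enzymes that cut the main chains of the mixture were not analysed here.

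**Figure D3:**
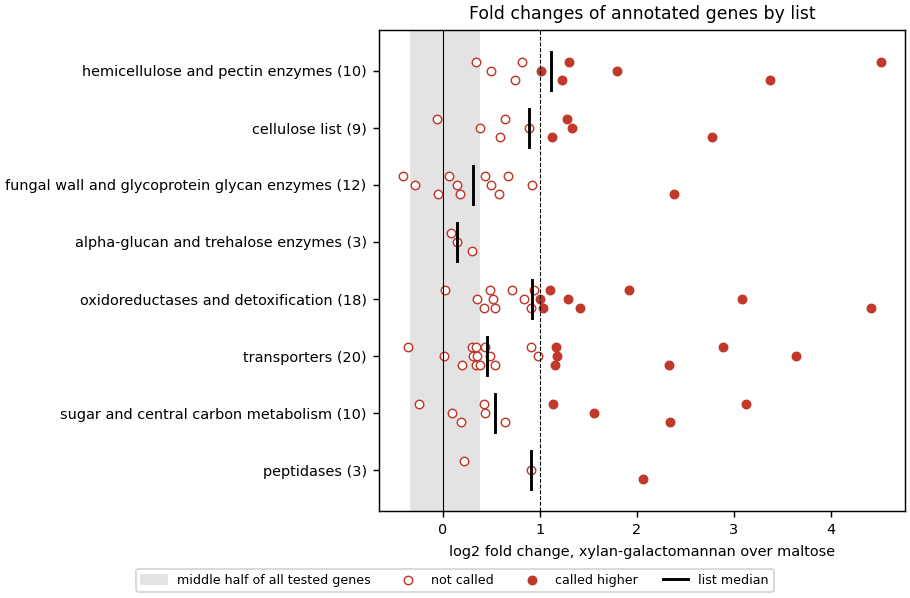
Log2 fold change of xylan-galactomannan over maltose (horizontal axis) for the 85 annotated genes in 8 lists, with the number of genes after each list name. Filled points were called higher, open points were not called, black bars are list medians, the grey band holds the middle 50% of all tested genes and the dashed line marks 1. List medians range from 0.15 (alpha-glucan and trehalose enzymes) to 1.12 (hemicellulose and pectin enzymes).

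An aldo/keto reductase, protein ID 3335, was higher on xylan-galactomannan. It is a member of the enzyme superfamily to which fungal xylose reductases belong, and had normalized read counts of 14997, 18457 and 20152 on xylan-galactomannan, against 860, 650 and 978 on maltose. Every xylan-galactomannan library was far above every maltose library. The log2 fold change was 4.41 ± 0.22 (SE, adjusted p = 1.57e-10). A second aldo/keto reductase, 8358, had 3697, 3744 and 4120 on xylan-galactomannan, against 1443, 1685 and 1516 on maltose (log2 fold change 1.29 ± 0.12, adjusted p = 4.04e-07). The substrates of both enzymes are not given in the annotation.

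Both reductases were also higher than on Avicel, where the medium held the same amount of maltose. Protein ID 3335 had 312 and 206 normalized read counts on Avicel, and its log2 fold change of xylan-galactomannan over Avicel was 6.12 ± 0.29 (adjusted p = 2.07e-11). For 8358 the Avicel counts were 1325 and 1359, with a log2 fold change of 1.53 ± 0.15 (adjusted p = 2.35e-07). In that comparison 6.93% of all tested genes were called higher on xylan-galactomannan and 5.1% lower.

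Xylulokinase phosphorylates xylulose, the step by which xylose carbon enters the pentose phosphate pathway. The gene with this enzyme code, 8966, had 3424, 3555 and 3282 on xylan-galactomannan, against 1270, 967 and 1206 on maltose (log2 fold change 1.55 ± 0.20, adjusted p = 1.05e-05). On Avicel it had 3802 and 2779, which overlapped with xylan-galactomannan (log2 fold change 0.07 ± 0.22, adjusted p = 0.833). An increase was thus found against maltose but not against Avicel.

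The list of sugar and central carbon metabolism held 10 genes, of which 4 were called higher and 6 were not called (median log2 fold change 0.54). Protein ID 8051, annotated as a cystathionine lyase or synthase of sulfur amino acid metabolism, had 8530, 10003 and 9287 on xylan-galactomannan, against 1115, 1137 and 892 on maltose (log2 fold change 3.12 ± 0.29). A hydroxyacid reductase, 8551, had 9788, 12967 and 9751 on xylan-galactomannan, against 3142, 1307 and 1878 on maltose (log2 fold change 2.34 ± 0.32). Neither of these is an enzyme of sugar breakdown. A gene with a glycerol kinase code, 3400, had 3641, 5492 and 4234 on xylan-galactomannan, against 1954, 1685 and 2349 on maltose (log2 fold change 1.14 ± 0.25). Its call was lost without xylan-galactomannan replicate 2, where the log2 fold change was 0.95. The gene below 0 in this list was a predicted phenylalanine ammonia-lyase, with a log2 fold change of -0.25 and an adjusted p of 0.665.

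Transporters move sugars, peptides and ions across membranes. Of 20 genes in this list 6 were called higher and 14 were not called, with a median log2 fold change of 0.46. The list has 3 members related to sugar transporters, and they differed from each other. Protein ID 2165 had 3773, 3761 and 3541 on xylan-galactomannan, against 273, 283 and 319 on maltose (log2 fold change 3.64 ± 0.17, adjusted p = 7.22e-11). Both groups had narrow ranges. Protein ID 6423 had 6249, 5219 and 5499 on xylan-galactomannan, against 783, 735 and 734 on maltose (log2 fold change 2.89 ± 0.21, adjusted p = 1.22e-08). The third, 6154, had 4900, 2740 and 3703 on xylan-galactomannan, against 2817, 2931 and 3221 on maltose, which overlapped (log2 fold change 0.32 ± 0.18, adjusted p = 0.164).

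Against Avicel the first 2 of these genes behaved differently. Protein ID 2165 had 267 and 170 on Avicel and was higher on xylan-galactomannan (log2 fold change 4.09 ± 0.21, adjusted p = 5.96e-11). Protein ID 6423 had 8112 and 3947 on Avicel, values on either side of those on xylan-galactomannan (log2 fold change -0.08 ± 0.21, adjusted p = 0.78). The 2165 gene was the 1 of the 20 transporter genes called higher than on Avicel in the main fit. Others were close to a call. Protein ID 8078 was at 1.11 ± 0.44 (adjusted p = 0.053), and the aquaporin 7930 was at 0.995 ± 0.24 (adjusted p = 0.00356). With upper-quartile scaling, the fit of only the groups compared or the replicate block 8078 was called, as was 7058 without Avicel replicate 1.

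Other transporter genes changed less. A major facilitator gene, 8078, had 6473, 4486 and 5673 on xylan-galactomannan, against 1576, 697 and 969 on maltose (log2 fold change 2.33 ± 0.40, adjusted p = 0.000188). A mitochondrial carrier, 3467, had a log2 fold change of 1.18 ± 0.23 (adjusted p = 0.000674). A predicted aquaporin, a channel for water or small solutes, was at 1.16 ± 0.29 (7058, adjusted p = 0.00351), and this call was lost without xylan-galactomannan replicate 1 (0.97) or maltose replicate 2 (0.996). The oligopeptide transporter 4044 was the transporter below 0 (log2 fold change -0.36, adjusted p = 0.0827).

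**Figure D4:**
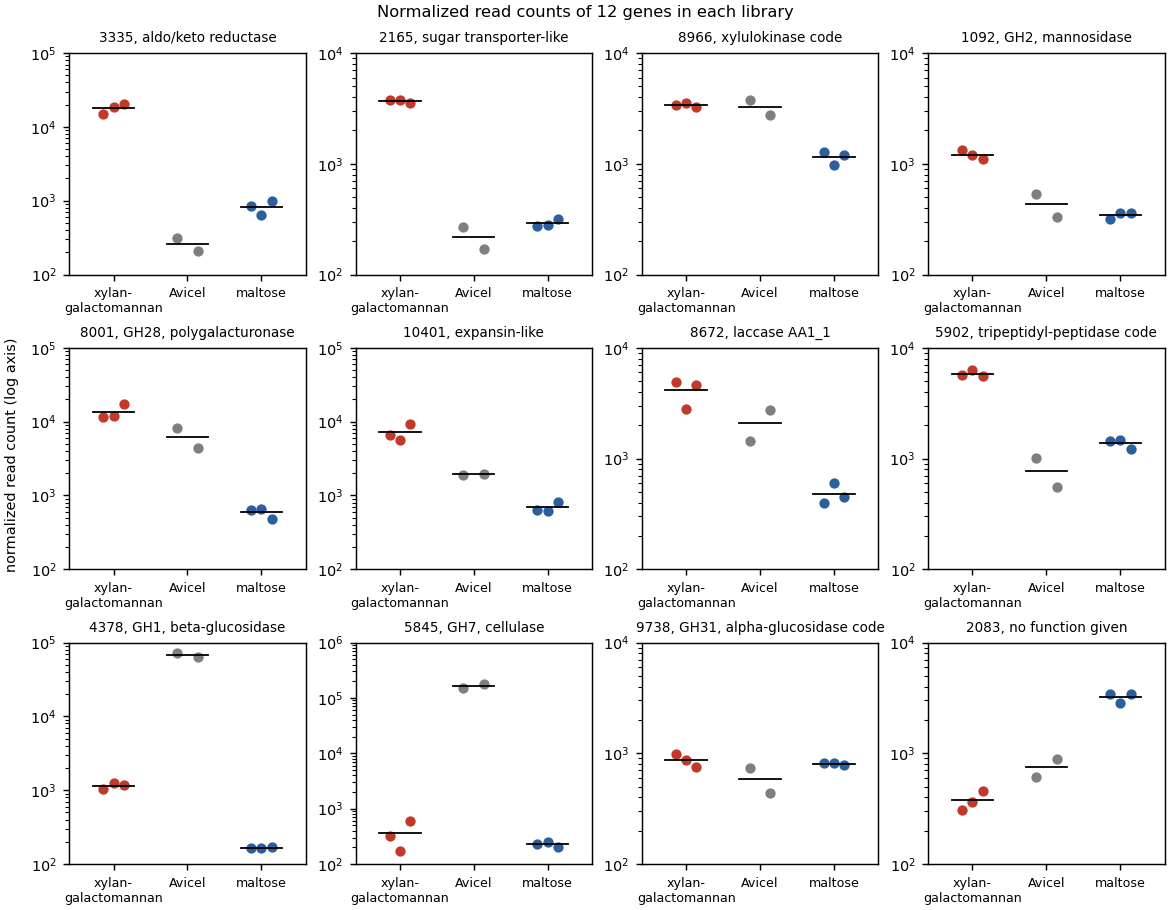
Normalized read counts (vertical log axes) of 12 genes in the single libraries on xylan-galactomannan (red, n = 3), Avicel (grey, n = 2) and maltose (blue, n = 3), with black bars for group means. Protein IDs 3335 and 2165 are high on xylan-galactomannan alone among the 3 media, 8966 is as high on Avicel, 4378 and 5845 are highest on Avicel, 9738 overlaps between xylan-galactomannan and maltose, and 2083 is highest on maltose.

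Hemicellulose and pectin enzymes formed the list with the highest median log2 fold change, 1.12. Of its 10 genes 6 were called higher and 4 were not called, all 10 were above 0, and 4 were called higher than on Avicel. The GH2 gene 1092, a predicted mannosidase of the kind that releases mannose from mannan fragments, had 1328, 1213 and 1097 on xylan-galactomannan, against 316, 357 and 360 on maltose. Its groups were well separated, at a log2 fold change of 1.80 ± 0.15 (adjusted p = 6.97e-08). On Avicel 1092 had 528 and 333, and the log2 fold change over Avicel was 1.51 ± 0.17 (adjusted p = 2.14e-06). Its means on aspen, pine and wheat straw were higher, at 4193, 5325 and 4468. From its regulation on these plant substrates, the study proposes that 1092 does not respond to mannan in particular, which was not tested here.

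Beta-galactosidases release beta-linked galactose, whereas the galactose side groups of galactomannans are alpha-linked and are removed by alpha-galactosidases. The GH35 gene 7004, with a beta-galactosidase code, had 2579, 2461 and 2535 on xylan-galactomannan, against 1061, 1066 and 1066 on maltose (log2 fold change 1.22 ± 0.21, adjusted p = 0.00018). The GH27 gene 7245 carries an alpha-galactosidase code, although the study's text predicts an arabinosidase. It had 3670, 3147 and 3711 on xylan-galactomannan, against 1930, 1920 and 2052 on maltose, and so did not overlap, but its log2 fold change of 0.81 ± 0.12 (adjusted p = 5.44e-05) stayed under the fold threshold. A GH3 gene with a beta-glucosidase code, 4566, had 768, 981 and 656 on xylan-galactomannan, against 673, 501 and 697 on maltose, which overlapped (log2 fold change 0.34 ± 0.20, adjusted p = 0.181).

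The largest increase among the carbohydrate-active enzymes in the lists was in a pectin family. GH28 holds the polygalacturonases, which cut the galacturonic acid chains of pectin. Its member 8001 had 11590, 11757 and 17566 on xylan-galactomannan, against 630, 648 and 484 on maltose (log2 fold change 4.51 ± 0.28, adjusted p = 2.44e-09). On Avicel 8001 had 8069 and 4406 (log2 fold change over Avicel 1.14 ± 0.28, adjusted p = 0.00431), and that call was lost without xylan-galactomannan replicate 3 (0.90) or Avicel replicate 3 (0.76). The other GH28 gene, 3798, had 2153, 3551 and 2886 on xylan-galactomannan, against 1178, 1122 and 1143 on maltose (log2 fold change 1.30 ± 0.18). It was also called higher than on Avicel, at 1.52 ± 0.21.

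Expansin-like proteins loosen cell wall polymers without hydrolysis. The expansin-like gene 10401 had 6680, 5638 and 9316 on xylan-galactomannan, against 638, 606 and 818 on maltose (log2 fold change 3.37 ± 0.24, adjusted p = 8.97e-09). It had 1884 and 1975 on Avicel, with a log2 fold change over Avicel of 1.91 ± 0.26 (adjusted p = 1.75e-05). Its level was thus highest on xylan-galactomannan among the 3 media, with Avicel between. Means on aspen, pine and wheat straw were higher still, at 13929, 30469 and 45650.

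The cellulose list comes from a gene group rich in secreted proteins in the study's annotation, with cellulases and a lytic polysaccharide monooxygenase among its members. Of its 9 genes, 4 passed as higher than on maltose and 5 were not called (median log2 fold change 0.89). The GH1 gene 4378, of the beta-glucosidase family that releases glucose from cellobiose, had 1027, 1252 and 1167 on xylan-galactomannan, against 162, 163 and 171 on maltose (log2 fold change 2.78 ± 0.16, adjusted p = 5.84e-10). An endoglucanase of GH5_5 with a cellulose-binding module, 8616, had 495, 339 and 637 on xylan-galactomannan, against 156, 218 and 199 on maltose (log2 fold change 1.33 ± 0.22). Protein ID 6394, which has no predicted function, was at 1.28 ± 0.27. The GH131 gene 1365 was at 1.13 ± 0.30, and its call was lost without xylan-galactomannan replicate 3 (0.67).

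Levels of these genes on xylan-galactomannan remained far below those on cellulose, and all 9 were called lower than on Avicel (median log2 fold change over Avicel -7.05). The study had grouped these 9 genes by their transcription over media that included Avicel, where their levels were high. Their direction against Avicel thus follows from how the list was formed and is given as a description. The GH7 gene 5845, of the family of cellobiohydrolases, had 317, 171 and 598 on xylan-galactomannan, against 152183 and 181396 on Avicel. Its values overlapped with the 228, 250 and 205 on maltose (log2 fold change over maltose 0.64 ± 0.31, adjusted p = 0.102). The AA9 monooxygenase 5579, which cleaves crystalline cellulose by oxidation, had 217, 165 and 229 on xylan-galactomannan, against 148, 114 and 137 on maltose (log2 fold change 0.59 ± 0.20, adjusted p = 0.0215, under the fold threshold).

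Oxidoreductases and detoxification genes include the enzymes by which white-rot fungi attack lignin and handle aromatic compounds. In this list 8 of 18 genes were called higher and 10 were not called, with a median log2 fold change of 0.92 and all 18 above 0. Without xylan-galactomannan replicate 1, 5 of the 18 were called. Laccases oxidize phenols, and the 2 laccase genes differed. Protein ID 8672 had 4932, 2772 and 4660 on xylan-galactomannan, against 395, 595 and 447 on maltose (log2 fold change 3.08 ± 0.28, adjusted p = 2.27e-07). Protein ID 3446 had 1746, 1155 and 1338 on xylan-galactomannan, against 1030, 1053 and 839 on maltose (log2 fold change 0.51 ± 0.16, adjusted p = 0.0126, under the fold threshold). Cytochrome P450 enzymes hydroxylate many small molecules, and P450 5611 had 838, 670 and 836 on xylan-galactomannan, against 219, 210 and 180 on maltose (log2 fold change 1.92 ± 0.28). A flavoprotein monooxygenase, 7533, was at 1.41 ± 0.27.

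Among enzymes of the fungal wall and of glycoproteins 1 of 12 genes was called higher, a share near the 6.97% of all tested genes, and the median log2 fold change was 0.31. The called gene was a GH92 alpha-mannosidase, 6860, of a family that trims mannose from glycoproteins, with 2578, 1361 and 2131 on xylan-galactomannan, against 396, 377 and 373 on maltose (log2 fold change 2.38 ± 0.30, adjusted p = 8.65e-06). It was also called higher than on Avicel, where it had 715 and 235 (log2 fold change 2.10 ± 0.35, adjusted p = 0.000133). Without xylan-galactomannan replicate 1, 2 of the 12 genes were called. The 3 genes below 0 in this list lay between -0.06 and -0.41 and were not called.

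Maltose itself is split by alpha-glucosidases. The GH31 gene in the lists with this code, 9738, had 983, 861 and 753 on xylan-galactomannan, against 819, 811 and 790 on maltose. The groups overlapped (log2 fold change 0.08 ± 0.17, adjusted p = 0.715), and without xylan-galactomannan replicate 1 the log2 fold change was -0.02. Alpha-glucosidase genes outside the lists were not examined, so the values cover this gene only. An alpha-amylase gene and a trehalase gene, the other members of this list, were at 0.30 and 0.15, and none of the 3 was called.

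Of 3 peptidase genes 1 was called, or 2 without xylan-galactomannan replicate 2 or 3. Tripeptidyl-peptidases remove tripeptides from proteins, and 2 of the 3 genes carry this code. The called one, 5902, had 5692, 6271 and 5549 on xylan-galactomannan, against 1444, 1473 and 1214 on maltose (log2 fold change 2.06 ± 0.25, adjusted p = 6.25e-06). It had 1004 and 552 on Avicel, with a log2 fold change over Avicel of 2.92 ± 0.31 (adjusted p = 9.41e-07). The other, 3078, was under the fold threshold against maltose (log2 fold change 0.90 ± 0.27, adjusted p = 0.0109) and was not called against Avicel (-0.42 ± 0.29, adjusted p = 0.261).

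Of the 30 annotated genes called higher than on maltose, 15 were also called higher than on Avicel, 4 were called lower and 11 were not called. The 4 lower ones were those of the cellulose list. Libraries were left out in turn for the higher ones other than 1192, and 3400, 5611, 7533, 8001 and 8551 then lost that call (without Avicel replicate 3 in each case). Both comparisons use the same xylan-galactomannan libraries, so the counts are not independent of each other. The study's choice of these genes also used their levels on Avicel, so the counts against Avicel carry that selection.

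The most extreme genes were outside the annotated lists, and no function is given for them here. Protein ID 9246 had 4531, 10269 and 7500 on xylan-galactomannan, against 20.0, 23.6 and 27.8 on maltose (log2 fold change 8.27 ± 0.35, adjusted p = 1.35e-11). It had 152 and 83.2 on Avicel. Protein ID 5863 had 73.4, 136 and 171 on xylan-galactomannan, against 0.799, 1.57 and 0 on maltose, where the 3 libraries held 3 reads in all. The ratio of the means was 160.1, with an exact Poisson interval for the maltose reads of 54.8 to 776.5 (95%, counting error only). This gene was far higher on Avicel, with 44639 and 28197.

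In the other direction, 2083 had 310, 360 and 456 on xylan-galactomannan, against 3412, 2841 and 3448 on maltose (log2 fold change -3.13 ± 0.17, adjusted p = 2.86e-10). Protein ID 70 had 115, 92.0 and 114 on xylan-galactomannan, against 889, 828 and 822 on maltose (log2 fold change -3.01 ± 0.24, adjusted p = 5.46e-08). On Avicel these genes had 615 and 893 (2083), and 354 and 140 (70), also below maltose. None of the 293 lower genes was in the annotated lists.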

How the data were processed

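RNA-seq was performed on mycelium of Pycci 137. Per the labels and the methods of the study, double-stranded cDNA was made from poly-A RNA and sequenced as paired-end reads on an Illumina instrument. The authors aligned the reads with TopHat2, counted them per gene model with HTSeq, and deposited these counts. The sources used here give no version of either tool, no genome build and no treatment of strand or of reads matching several genes. Counts of near-identical or overlapping genes are uncertain for that reason. The authors also deposited a normalized signal, the counts divided by DESeq size factors (the submitters' processing notes name DESeq 1.5), which held 9167 gene models. The raw counts cover 10442 gene models, and 829 of these were at 0 counts in every library. All columns were matched to a library by name, and 0 protein IDs were found in the RefSeq annotation for this fungus, so no coordinates or sequences are given.

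Counts were tested with the quasi-likelihood test of edgeR 4.0.16 in R 4.3.3 (filterByExpr, TMM scaling, group as the only term, all 17 libraries in 1 fit). The SE was computed by dividing the log2 fold change by √F. The study names DESeq2 for its own test, which was run as an alternative (version 1.42.0). For levels, log2(normalized read count + 1) was averaged over replicates. Ratios with 3 or fewer reads in the lower group were given exact Poisson intervals. The test was also run on data drawn with known fold changes, larger than those of most called genes. The outcome of that run is not given here, and it did not cover smaller changes. Alternatives were RLE and upper-quartile scaling, no filter, only the groups compared, Bonferroni adjustment, other fold thresholds and levels, a replicate block, and leaving out each library.

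The comparison and the gene lists were chosen with earlier results of these data known. Genes were named by a rule: in each list the called genes with the largest log2 fold change (up to 5), a core set of genes, and any called lower. To these were added, at each end of the ranking by log2 fold change, 2 IDs among called genes whose replicates did not overlap and whose mean normalized read count was at least 100 in the higher group. Such IDs were not screened for annotation outside the lists. Replicate 2 of Avicel was not analysed here.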

Additional observations from a re-analysis of the deposited data

How the results depend on the processing

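Against maltose, the 639 higher and 293 lower genes and the 30 annotated genes called stayed within 1.5 times under RLE scaling, DESeq2, no filter and the fit of only the groups compared. They also did so under upper-quartile scaling, which gave 583 higher, 341 lower and 27 annotated genes. Leaving out single libraries gave 602 to 728 higher genes, 255 to 413 lower genes, 26 to 31 annotated genes and, against Avicel, 583 to 766 higher genes. Bonferroni adjustment left 333 higher, 149 lower and 18 annotated genes, and 284 higher than on Avicel. With no fold threshold 2112 genes were higher, 1939 lower and 1912 higher than on Avicel. A log2 fold change past 2 left 154, 21 and 144 genes. Highly transcribed genes on xylan-galactomannan only numbered 126 at a level of 11 and 44 at a level of 13, in place of 78. In these cases the changed threshold is the cause by construction.

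Replicate numbers are shared between the groups, but same-numbered samples did not deviate together (correlations of 0.00325, 0.0789 and 0.0198), so the numbers were not taken as pairs. With a replicate block 628 genes were higher, 303 lower, 29 annotated genes were called and 612 genes were higher than on Avicel. Not every sample correlated best with its own number.

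Among the genes named in the text, calls against maltose were lost under Bonferroni adjustment for 7004, 8616, 6394, 1365, 7533, 8078, 3467, 7058 and 3400. The sign of 9738 against maltose turned without xylan-galactomannan replicate 1 (-0.016, to 0.19 over the libraries left out). Against Avicel, where the reference has 2 libraries, signs of uncalled genes turned for 3446 with upper-quartile scaling (0.024), the replicate block (0.016), and without xylan-galactomannan replicate 2 (0.12) or 3 (0.030), with -0.18 as the lowest value. They also turned for 4566 without xylan-galactomannan replicate 2 (-0.049) or Avicel replicate 3 (-0.23, up to 0.58), for 6423 without Avicel replicate 1 (0.52, down to -0.52), and without Avicel replicate 3 for 3467 (-0.46, up to 0.90) and 8966 (-0.15, up to 0.30). The cause was not tested. Protein ID 8672 gained a call against Avicel with upper-quartile scaling (1.02) and the replicate block (1.02). It was also called without xylan-galactomannan replicate 2 (1.20) or Avicel replicate 3 (1.53). A call was gained for 8078 with upper-quartile scaling (1.14), the fit of only the groups compared (1.11) and the replicate block (1.27). Without Avicel replicate 1, 7004 (1.49), 7245 (1.03) and 7058 (1.17) were called. Calls against Avicel were lost without Avicel replicate 3 for 3400 (0.69), 5611 (0.92), 7533 (0.54), 8001 (0.76) and 8551 (1.12). That of 7533 was also lost without xylan-galactomannan replicate 2 (0.77), and under RLE scaling (0.9986), DESeq2 (0.9981) and no filter (0.9994). Bonferroni adjustment ended the calls against Avicel of 8001, 6860, 5611, 7533, 8051, 8551 and 3400. It also ended those of 2083 and 70, called lower than on Avicel in the main fit (-1.0006 and -1.19). The call of 2083 was also lost with upper-quartile scaling (-0.98), the fit of only the groups compared (-0.999) and the replicate block (-0.94). So it was without xylan-galactomannan replicate 1 (-0.88) or 2 (-0.98), or Avicel replicate 3 (-0.71). That of 70 was lost without Avicel replicate 1 (-0.39). Genes at low counts are limited by depth, as the SE by level shows.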
